A study of Mus musculus with 6 samples.

Results

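A set of 10 mast cell genes was followed in whole small intestine, in Cftr null mice and in Cftr control mice. They are the chymase-family proteases Mcpt1, Mcpt2, Mcpt4, Cma1 and Cma2, the tryptase Tpsb2, the carboxypeptidase Cpa3, the receptors Kit and Fcer1a, and the histamine-forming enzyme Hdc. All 10 genes had at least 1 probe set, the array's unit of measurement for a transcript, and together they had 15 of the 12422 probe sets for genes on the array. A probe set was taken for a gene where the platform annotation gave that single symbol for it. The genes were chosen by knowing the null and control intensities of these same 6 mice, so their differences between the groups are given as a description and carry no p-value.

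The mice were 3 Cftr null animals (-/-) and 3 Cftr control animals (+/+), every one congenic on the black6 background and aged 40 days. Null replicates 1 and 3 were males and null replicate 2 was a female; control replicates 1 and 2 were males and control replicate 3 was a female. Both groups had received Peptamen, a liquid diet that keeps the gut open, from day 10 of life. RNA of the whole small intestine of 1 mouse was read on each 1-colour Affymetrix array, so every value averages over epithelium, muscle, nerves and blood-derived cells. The labels do not say which Cftr allele was used.

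Mast cells are tissue-resident cells of the blood lineage that store proteases, heparin and histamine in granules and release them when IgE bound to the receptor FcεRI is crosslinked. Their growth and survival depend on the receptor tyrosine kinase Kit and its ligand, stem cell factor. In mice, mucosal mast cells of the gut lining store the chymases Mcpt1 and Mcpt2 and are known for their expansion during infection with intestinal worms. Connective tissue mast cells, which lie in the skin, the peritoneum and the deeper gut wall, store Mcpt4, Cma1, the tryptases and Cpa3.

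The chymase-family genes lie side by side on chromosome 14. In the RefSeq annotation of the mouse genome (GRCm38.p6) the order was Cma1, Cma2, Mcpt1, Mcpt2, Mcpt9 and Mcpt4, with Mcpt8 and Ctsg beyond. From Cma1 to Mcpt4 there were 6 protein-coding genes, of which 5 belong to the genes described and had a probe set of their own. Tpsb2 lies on chromosome 17, Cpa3 on chromosome 3, Kit on chromosome 5, Fcer1a on chromosome 1 and Hdc on chromosome 2.

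RefSeq promoter windows were given for 7 of the 10 genes. They are shown for Mcpt1, a chymase that was bright in null intestine, and for Mcpt4, a nearby chymase that was dim in all mice. Cpa3, a granule gene on another chromosome, is shown too. Each sequence is the 250 bases before the annotated start in GRCm38.p6, written 5′ to 3′ on the gene's strand, and capitals mark GATAA, the core of the motif bound by GATA factors. The Mcpt1 window is chr14:56017714-56017963 on the plus strand, the Mcpt4 window chr14:56062311-56062560 on the minus strand and the Cpa3 window chr3:20242182-20242431 on the minus strand.
Mcpt1: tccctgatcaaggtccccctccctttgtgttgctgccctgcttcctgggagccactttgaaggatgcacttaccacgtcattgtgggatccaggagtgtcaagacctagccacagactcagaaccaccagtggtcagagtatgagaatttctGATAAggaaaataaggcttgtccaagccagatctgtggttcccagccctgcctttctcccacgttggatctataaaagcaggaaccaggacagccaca
Mcpt4: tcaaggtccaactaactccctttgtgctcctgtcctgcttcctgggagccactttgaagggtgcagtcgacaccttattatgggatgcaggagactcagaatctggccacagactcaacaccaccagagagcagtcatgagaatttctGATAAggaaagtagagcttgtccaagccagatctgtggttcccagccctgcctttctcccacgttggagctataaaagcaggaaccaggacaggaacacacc
Cpa3: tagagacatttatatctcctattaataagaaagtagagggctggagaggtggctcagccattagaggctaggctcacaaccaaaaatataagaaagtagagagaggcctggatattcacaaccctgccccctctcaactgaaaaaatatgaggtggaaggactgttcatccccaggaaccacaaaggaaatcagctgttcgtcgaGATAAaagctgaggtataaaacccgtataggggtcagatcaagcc

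The GATAA letters begin 98 bases before the start of Mcpt1, 102 bases before that of Mcpt4 and 45 bases before that of Cpa3. Searched on both strands, GATAA stood in the windows of 5 of 7 genes (Mcpt1, Mcpt4, Cma1, Cpa3 and Fcer1a) and in 22.6% of all 32851 mouse promoter windows of 250 bases. It was found in the windows of neither Kit nor Hdc. The general E-box CANNTG was found in 4 of 7 windows (Cma1, Cpa3, Fcer1a and Hdc) and in 66.2% of all windows. The E-box CACGTG, which is 1 form of CANNTG and is bound by the mast cell factor Mitf among others, was found in 0 of 7 windows and in 6.02% of all windows. These are matches of letters in a short window and not binding sites. The Mcpt1 and Mcpt4 windows were 81.9% identical, with 213 identical bases in 260 aligned columns, whereas the other 20 pairs of windows were 44.1% to 54.1% identical. The alike windows thus belong to a gene that was bright in null intestine and to one that was dim in every mouse.

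The 6 arrays were similar in brightness. Their 2%-trimmed mean intensity was 500.3 on each, and their medians lay between 177.3 and 188.6. Pairs of null mice correlated at r = 0.953 to 0.961 over the probe sets, and pairs of control mice at 0.947 to 0.972. The Cftr probe set that could be tested read 295.6 to 368.5 in null mice and 801.6 to 1017.5 in control mice (log2 difference -1.47, limma adjusted p = 0.00421). All 7 measured epithelial marker genes of the small intestine passed the filter on dim probe sets, and their summed intensity was 57956 to 90158 in null mice and 102960 to 121940 in control mice. None of the 7 genes passed the test on its own (lowest limma adjusted p = 0.0556 for Rbp2, the retinol-binding protein of enterocytes).

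Intensities of different probe sets are not on a common scale, so no gene's level is set against another's. Sums over a list are set only between mice, and the brightest probe sets of the list weigh most in them. A probe set was tested when it lay above an intensity of 109.7 in at least 3 of the 6 arrays, which 7601 probe sets did, and values below that level are called dim. Differences are given as null minus control on the log2(intensity + 12) scale, which understates the differences of dim probe sets. Where the control mean lay at or below 109.7 on that scale, the fold is a bound taken against that level and written as at least N-fold. Of the 15 probe sets, 8 were tested, for 6 of the genes, and 7 were not. Fcer1a, Hdc, Mcpt4 and Cma1 had no probe set that was tested.

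The mucosal mast cell chymases Mcpt1 and Mcpt2 had the largest differences of the 10 genes, higher in null intestine. Mcpt1, a chymase that mucosal mast cells release into the gut wall and lumen, was read by a brighter probe set at 4796.0, 2265.2 and 6119.9 in null replicates 1 to 3, and at 189.3, 71.7 and 19.0 in control replicates 1 to 3. Every null mouse lay far above every control mouse, and of the controls only replicate 1 was above the dim level. The highest null mouse was 2.7 times the lowest, and the highest control mouse was 9.96 times the lowest. The means were 4394 ± 1959 in null mice and 93.3 ± 87.2 in control mice (SD, n = 3 each), at least 33.4-fold higher in null mice, with a fitted log2 difference of 5.66. In whole intestine, more mast cells and more of the transcript per mast cell cannot be told apart, here or for any gene below.

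A dimmer Mcpt1 probe set read 1774.4, 681.1 and 1643.7 in null replicates 1 to 3 and 29.5, 40.5 and 24.6 in control replicates 1 to 3. All controls were dim, so it was tested through its null values alone. The means were 1366 ± 597 in null mice and 31.5 ± 8.14 in control mice (SD, n = 3 each), at least 10.4-fold higher in null mice. The names of both Mcpt1 probe sets carry a mark: f stands for probes shared with other members of a sequence family, and r for probes chosen under relaxed rules. Whether transcripts of neighbouring proteases add to these values was not tested.

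Mcpt2, the other chymase-family protease of mucosal mast cells, was read by a probe set with an unmarked name. It gave 2975.5, 1727.6 and 5038.1 in null replicates 1 to 3 and 133.6, 93.0 and 100.5 in control replicates 1 to 3. The groups lay far apart, and the controls sat around the dim level. The means were 3247 ± 1672 in null mice and 109.0 ± 21.6 in control mice (SD, n = 3 each), at least 24.4-fold higher in null mice, with a log2 difference of 4.63.

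Cma2, a chymase-family gene that lies next to Mcpt1, read 1013.4, 622.5 and 1387.9 in null replicates 1 to 3 and 233.9, 182.7 and 201.8 in control replicates 1 to 3. It was above the dim level in all 6 mice, and its groups did not overlap. The means were 1008 ± 383 in null mice and 206.1 ± 25.9 in control mice (SD, n = 3 each), 4.46-fold higher in null mice on the log2(intensity + 12) scale. Its name too carries the mark of a sequence family.

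**Figure D1:**
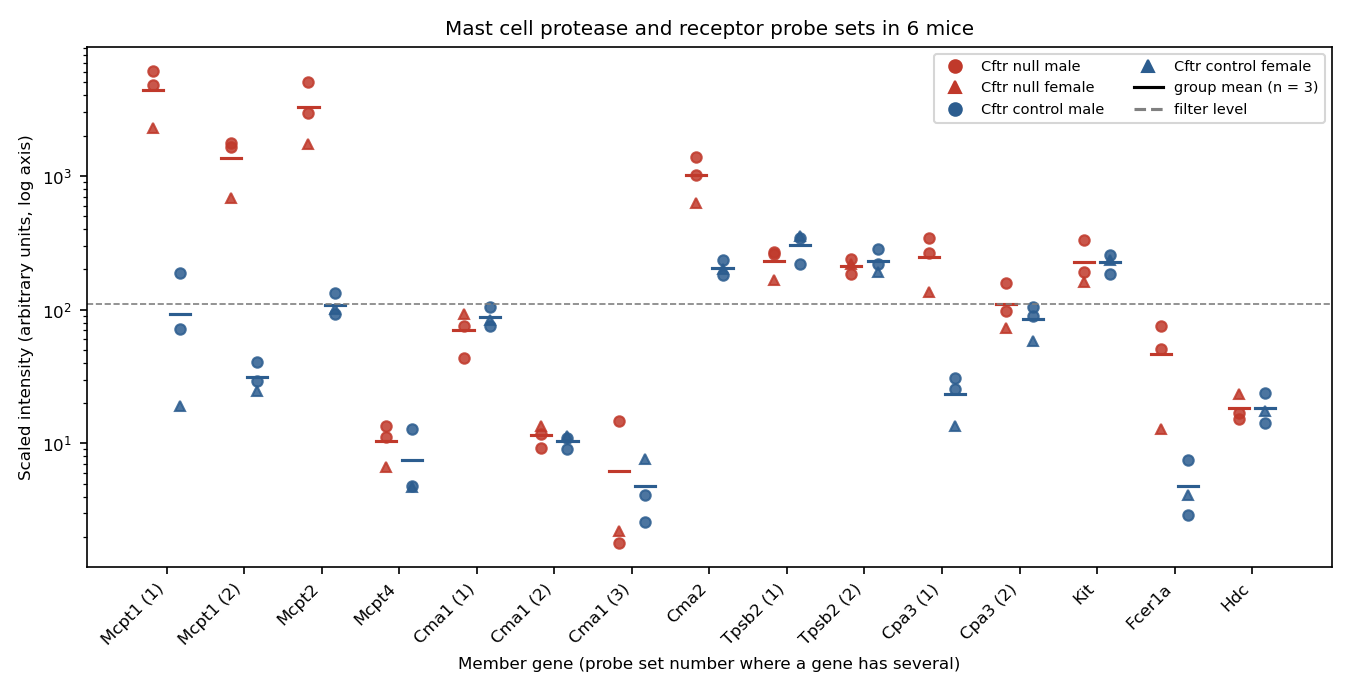
Intensity of every probe set of the 10 genes in each mouse, on a log axis, with null mice left of control mice; triangles are females, short bars are group means (n = 3) and the dashed line is the level of 109.7. Both Mcpt1 probe sets, Mcpt2, Cma2 and the first Cpa3 probe set have every null mouse above every control mouse, as has the dim Fcer1a, whereas Kit and both Tpsb2 probe sets overlap.

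Of the proteases of connective tissue mast cells, Mcpt4 and Cma1 were dim in every mouse, Tpsb2 overlapped between the groups, and Cpa3 was higher in every null mouse on 1 of its 2 probe sets. Mcpt4, the main chymotrypsin-like chymase of connective tissue mast cells, read 13.4, 6.7 and 11.1 in null replicates 1 to 3 and 4.8, 12.9 and 4.7 in control replicates 1 to 3. It was dim in all 6 mice and the groups overlapped. The brightest of 3 probe sets for Cma1, the mouse α-chymase, read 43.4, 93.3 and 75.8 in null replicates 1 to 3 and 75.0, 105.1 and 83.2 in control replicates 1 to 3. The other 2 Cma1 probe sets were at most 14.7 in null mice and at most 11.3 in control mice, and the groups overlapped in all 3. No fold is given where both groups are dim, and such values show only that the transcript was not measured above that level.

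Along chromosome 14, the genes with every null mouse above every control mouse, Cma2, Mcpt1 and Mcpt2, were adjacent. Cma1, on the Cma2 side, was dim in every mouse. On the other side Mcpt9, next to Mcpt2, had no probe set of its own, and Mcpt4 beyond it was dim in every mouse. A probe set given to both Cma2 and Mcpt9 was 3.28-fold higher in null mice, and the share of Mcpt9 in it was not tested. With Cma1 and Mcpt4 dim, how far the higher genes extend was measured on neither side. The Cma2 and Mcpt1 probe sets have marked names, and the part of shared probes in this pattern was not tested. Beyond Mcpt4, the basophil protease gene Mcpt8 averaged 45.1 in null mice and 63.9 in control mice on its brighter probe set, and cathepsin G, Ctsg, averaged 6.53 in null mice and 9.0 in control mice. Neither was bright enough to be tested.

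Tpsb2, a tryptase of connective tissue mast cells that forms heparin-bound tetramers, was above the dim level in all 6 mice on both of its probe sets. The first read 270.7, 165.6 and 259.9 in null replicates 1 to 3 and 342.8, 217.5 and 357.1 in control replicates 1 to 3, with means of 232.1 ± 57.8 in null mice and 305.8 ± 76.8 in control mice (SD, n = 3 each). The second read 183.1, 219.2 and 238.1 in null replicates 1 to 3 and 220.0, 283.8 and 189.5 in control replicates 1 to 3. The groups overlapped on both, and the log2 differences were -0.38 and -0.10. The first was -0.04 between the males and -1.055 between the females, with 1 female in each group. The second changed sign in 2 of 12 other ways of processing the values.

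Cpa3, the mast cell carboxypeptidase that trims peptides after the chymases have cut them, read 263.4, 136.1 and 340.2 in null replicates 1 to 3 on its first probe set. Control replicates 1 to 3 gave 30.6, 25.6 and 13.5. Every null mouse was above the dim level and every control mouse below it, so this probe set too was tested through its null values alone. The means were 246.6 ± 103.1 in null mice and 23.2 ± 8.79 in control mice (SD, n = 3 each), at least 2.0-fold higher in null mice, with a fitted log2 difference of 2.82. The second Cpa3 probe set, whose name marks relaxed probe rules, gave 97.4, 72.3 and 158.1 in null replicates 1 to 3 and 105.1, 90.2 and 58.0 in control replicates 1 to 3. Its groups overlapped and it was not tested, so the 2 probe sets of this gene differ.

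Of the receptors, Kit overlapped between the groups, and Fcer1a did not but was dim. Kit, the stem cell factor receptor that marks mast cells and, in the gut wall, the interstitial cells of Cajal, read 190.7, 162.1 and 330.7 in null replicates 1 to 3 and 184.5, 255.7 and 235.8 in control replicates 1 to 3. The groups overlapped, with the highest and the lowest value both in null mice. The means were 227.8 ± 90.2 in null mice and 225.3 ± 36.7 in control mice (SD, n = 3 each), and the log2 difference of -0.04 changed sign in 5 of 12 other ways of processing. Of the genes known from interstitial cells of Cajal, Ano1 and Etv1 had no probe set with that single symbol and were not measured.

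Fcer1a, the IgE-binding chain of FcεRI, read 75.8, 12.8 and 50.7 in null replicates 1 to 3 and 7.5, 2.9 and 4.1 in control replicates 1 to 3. Every null mouse was above every control mouse, but all 6 values were dim, and no fold is given. Of the 7 probe sets not tested, Fcer1a was the 1 whose groups did not overlap; over all untested probe sets, 6.26% had every null mouse above every control mouse. Ms4a2, the β chain of the same receptor, also had every null mouse above every control mouse and was dim. It read 33.4, 58.6 and 76.9 in null replicates 1 to 3 and 12.6, 19.4 and 8.9 in control replicates 1 to 3. The order among the null mice differed, since replicate 1 was highest for Fcer1a and lowest for Ms4a2. The γ chain, Fcer1g, overlapped, at 32.3, 24.0 and 4.6 in null replicates 1 to 3 and 8.5, 7.4 and 13 in control replicates 1 to 3. Ms4a2 and Fcer1g were picked out after their values were seen, because they complete the receptor.

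Hdc, the enzyme that makes histamine from histidine, read 15.3, 23.4 and 16.8 in null replicates 1 to 3 and 24.0, 14.1 and 17.5 in control replicates 1 to 3. It was dim in all 6 mice and the groups overlapped.

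In the fit across all 7601 probe sets with limma, 5 of the 8 tested probe sets passed an adjusted p of 0.05 as higher in null mice, and 0 passed as lower. They belong to Mcpt1, Mcpt2, Cma2 and Cpa3. Over all probe sets tested, 1.13% were called higher and 1.87% lower in null mice, 3% in all. In 5 of the 8 every null mouse lay above every control mouse, and in 0 of the 8 every null mouse lay below; over all probe sets the shares were 13.1% and 10.8%. Because the genes were chosen on this same contrast, nothing is read from these counts. The median log2 difference of the 8 was 2.49 and that of all probe sets tested was 0.03. From the largest null-over-control difference down, the Mcpt1 probe sets stood at places 2 and 4, Mcpt2 at 6, Cpa3 at 13 and Cma2 at 22 of 7601, whereas Kit stood at 4497.

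The count of 5 rests in part on single mice. It was 3 without null replicate 1, when Cma2 and Cpa3 did not pass, and 4 without null replicate 3, when Cpa3 did not pass. Leaving out the probe sets with marked names, a step added after seeing the data, left 2 of the 5, those of Mcpt2 and Cpa3.

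**Figure D2:**
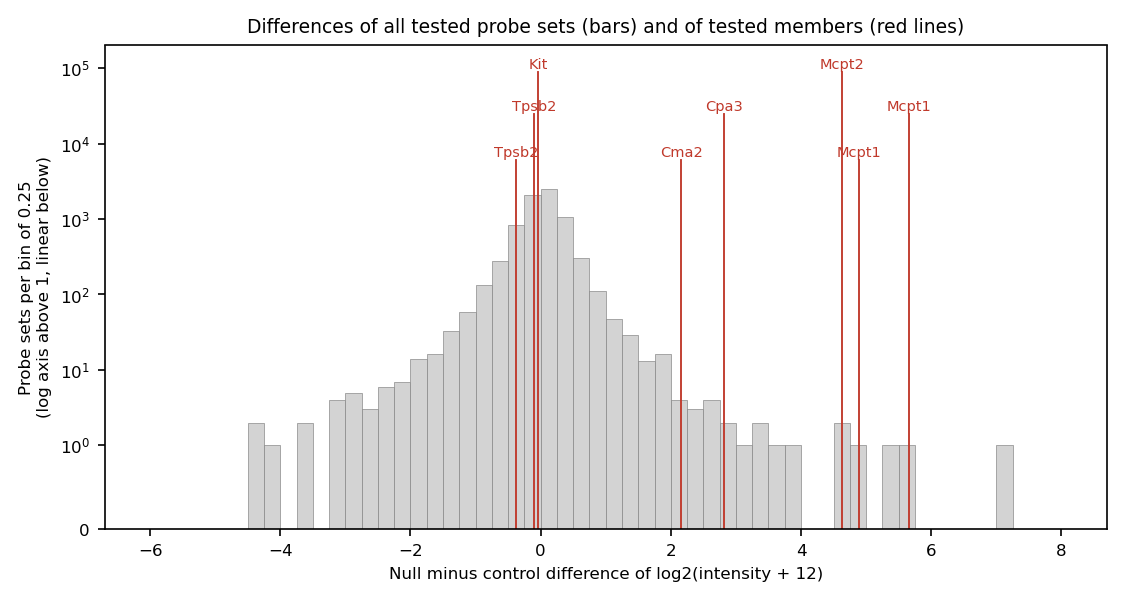
Number of probe sets per bin of 0.25, on an axis that is logarithmic above 1, by null minus control difference on the log2(intensity + 12) scale over all 7601 tested, with lines at the 8 tested probe sets of the 10 genes, whose heights only make room for the names. The lines for Mcpt1, Mcpt2, Cpa3 and Cma2 stand between 2.16 and 5.66, in the right tail, and those for Tpsb2 and Kit stand between -0.38 and -0.04.

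Among the null mice, the 5 probe sets kept nearly the same order. Null replicate 2, the female, was the lowest null mouse on all 5, at 50% to 62% of the null mean. Null replicate 3 was the highest on 4 of them, at 138% of the null mean for Cma2 and Cpa3, 139% for Mcpt1 and 155% for Mcpt2. Null replicate 1 was the highest on the dimmer Mcpt1 probe set, at 130% of its null mean. The highest null mouse was 2.23 to 2.92 times the lowest on each of the 5. Null replicate 2 also lay nearest to the controls in 58 of all 86 probe sets called higher and in 94 of the 142 called lower.

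**Figure D3:**
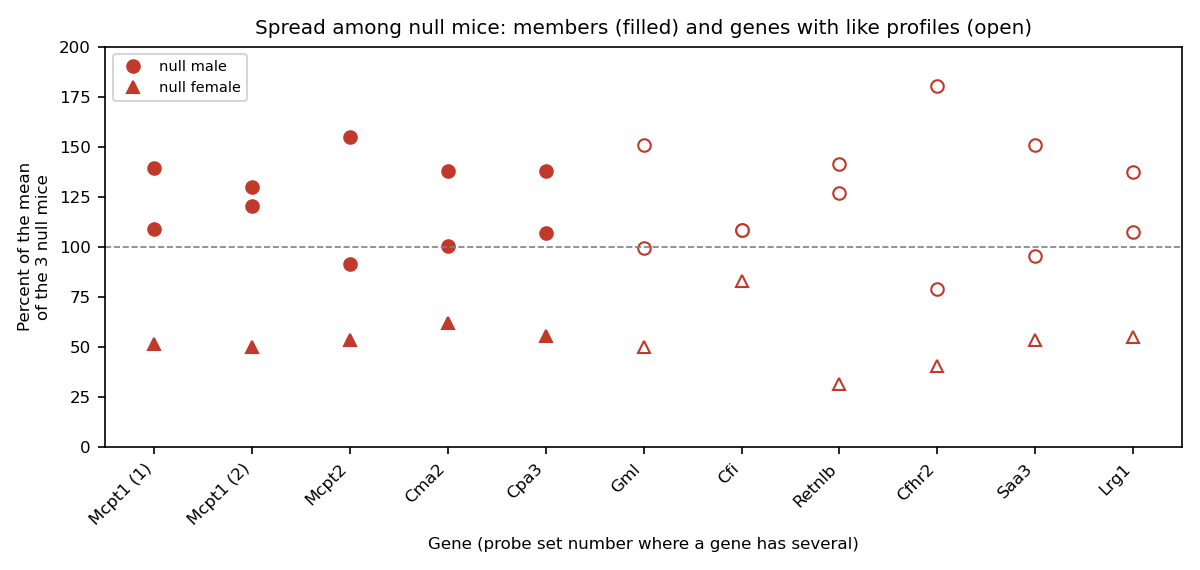
Intensity of each null mouse as a percentage of the null mean, for the 5 probe sets of Mcpt1, Mcpt2, Cma2 and Cpa3 that passed the test (filled) and for the 6 genes with the most similar profiles (open), with males as circles, the female as a triangle and the null mean as a dashed line. Null replicate 2, the female, is lowest on each, between 50% and 62% of the mean on the 5 filled ones.

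Sex was not used to choose the genes and was tested with limma over all 7601 probe sets, with genotype in the model. The brighter Mcpt1 probe set differed by -1.66 between females and males on the log2 scale (SE 0.36), lower in both the null and the control female, but did not pass after adjustment (limma adjusted p = 0.707). The female minus male difference was -0.83 for the dimmer Mcpt1 probe set, -0.65 for Mcpt2, -0.48 for Cma2 and -0.86 for Cpa3. None of the 8 probe sets passed, and 3 were under an unadjusted limma p of 0.05 (Mcpt1 on both probe sets and Cpa3). Over all probe sets 2 passed, a share of 0.0263%, and 378 of 7601 were under an unadjusted 0.05. The dimmer Mcpt1 probe set and Cpa3 were tested through their null values alone, so nothing is read from the count of 3. With 1 female in each group, the sex of a mouse and the mouse itself cannot be told apart.

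No difference between the sexes in the null minus control difference was called. For the brighter Mcpt1 probe set it was 6.20 between the females and 5.39 between the males on the log2 scale. For the dimmer one the order was the other way, at 4.24 between the females and 5.20 between the males. It was smaller between the females also for Mcpt2, at 3.95 against 4.97 between the males, and for Cma2, at 1.57 against 2.45. In the limma fit of the interaction of genotype and sex, 0 of the 8 probe sets passed (adjusted p = 1 for each), and 0 were under an unadjusted p of 0.05. Over all probe sets 0% passed and 236 were under an unadjusted 0.05.

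Likeness of profiles was measured as the mean absolute difference between log2 values over the 6 mice, each probe set centred on its own mean, so that 0 is the same profile. The Mcpt2 profile stood 0.33 from the dimmer and 0.69 from the brighter Mcpt1 probe set. Cpa3 stood 0.91 from Mcpt2, Cma2 1.24, Kit 2.33 and the Tpsb2 probe sets 2.37 and 2.51. Cma2 stood 0.33 from Cpa3, 1.10 from Kit and 1.13 and 1.27 from the Tpsb2 probe sets, so that Kit and the nearer Tpsb2 probe set were closer to it than Mcpt2 was. The measure counts the size of a difference between the groups, and the genes were chosen on that difference.

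Outside the 10 genes, the 5 nearest to Mcpt2 were Cfi at 0.40, Gml at 0.40, Lrg1 at 0.62, Saa3 at 0.70 and Cfhr2 at 0.75. The 5 nearest to the brighter Mcpt1 probe set were Gml at 0.64, Cfi at 0.84, Retnlb at 0.97, Cfhr2 at 1.09 and Saa3 at 1.19. Cfi, Gml, Retnlb, Cfhr2 and Saa3 were dim in every control mouse and were tested through their null values alone. The size of the difference between the groups counts in these distances too, and shared regulation was not tested. Cfi encodes a complement-inactivating protease, Retnlb a goblet cell peptide and Saa3 an acute phase protein. Retnlb read 6329.1, 1570.6 and 7050.0 in null replicates 1 to 3 and 17.1, 18.6 and 22.6 in control replicates 1 to 3, with null replicate 2 again the lowest null mouse. Gml, which encodes a membrane-anchored protein of the Ly6 type, read 796.8, 398.7 and 1207.4 in null replicates 1 to 3 and 3.1, 4.7 and 12 in control replicates 1 to 3.

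Of the other tested genes of the mast cell pathway, 1 passed the test. Lists of granule and mediator genes, of IgE receptor and Kit signalling, of growth and homing signals, and of receptors and breakdown of mediators held 97 genes. Of these, 74 had a probe set, 37 were tested and 37 were too dim. In limma, 0 rose and 1 fell in null mice, beside 1.13% and 1.87% over all probe sets. Of the 37, 22 had a difference above 0 and 15 below, with a median of 0.10, against 0.03 for all probe sets tested. Of the 37 genes too dim to be tested, every null mouse lay above every control mouse in 3 (Ms4a2, Fcgr2b and Ccr2) and below in 2 (Ptger2 and Agt). Over all 4821 untested probe sets the shares were 6.26% and 5.31%.

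The gene that fell was Ltc4s, which makes leukotriene C4 in mast cells and other cells. It read 362.9, 368.4 and 325.3 in null replicates 1 to 3 and 630.3, 551.8 and 532.7 in control replicates 1 to 3, and the groups lay apart. The log2 difference was -0.68 (SE 0.13, limma adjusted p = 0.0343). The call was lost when any 1 of the 6 mice was left out. Of the other 4 granule and mediator genes tested, Ctsc, the protease that activates mast cell chymases and tryptases, had the largest difference, at 0.55, and did not pass (limma adjusted p = 0.0913). The median of the 5 was 0.25. Of the 10 genes of this list with a probe set, every null mouse lay above every control mouse in 1, Ctsc, and below in 1, Ltc4s. Over all probe sets tested these shares were 13.1% and 10.8%.

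Of 18 genes of IgE receptor and Kit signalling tested, 0 passed. The median difference was 0.10 and the lowest limma adjusted p was 0.16. Of the 29 genes of this list with a probe set, every null mouse lay above every control mouse in 4, Lat2 among them, and below in 0. These shares were 13.1% and 10.8% over all probe sets tested, and 6.26% and 5.31% over all untested ones. The largest differences were those of Pik3r1, a regulatory subunit of phosphoinositide 3-kinase, at -0.54, of the adaptor Lat2 at 0.45, and of the kinase Fyn at -0.41. Kitl, which encodes stem cell factor, read 1251.9, 1260.0 and 1226.4 in null replicates 1 to 3 and 1145.4, 820.4 and 1262.5 in control replicates 1 to 3, so that the groups overlapped. Gata2, a transcription factor of the mast cell lineage, was at 246.3 ± 9.95 in null mice and 255.7 ± 57.5 in control mice (SD, n = 3 each). Kitl and Gata2 were picked out after their values were seen.

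Of 9 growth, homing and differentiation signals tested, 0 passed, with a median of -0.01. Il4ra, the interleukin 4 receptor chain, read 611.5, 678.4 and 1001.7 in null replicates 1 to 3 and 458.2, 524.4 and 342.5 in control replicates 1 to 3 (log2 difference 0.76, limma adjusted p = 0.133). Itgb7, the integrin chain that mast cell progenitors use to enter the intestine, differed by 0.50 (limma adjusted p = 0.16). Notch1 read 47.6, 137.2 and 138.6 in null replicates 1 to 3 and 364.6, 246.1 and 225.9 in control replicates 1 to 3, a difference of -1.37 that did not pass (limma adjusted p = 0.118). In these 3 genes, which had the largest differences of the 9, the groups did not overlap. Null mice lay above in Il4ra and Itgb7 and below in Notch1. Over all probe sets tested, every null mouse lay above in 13.1% and below in 10.8%. Il9, a growth factor of mucosal mast cells that was picked out after its values were seen, overlapped, at 134.9, 43.6 and 165.8 in null replicates 1 to 3 and 169.9, 131.6 and 79.3 in control replicates 1 to 3. The cytokines Il3, Il4, Il10 and Il13, which also act on mast cell growth, were dim in all 6 mice.

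Of 5 receptors and breakdown enzymes tested, 0 passed, with a median of 0.20. Aoc1, the diamine oxidase of enterocytes that degrades histamine, read 5034.6, 6491.6 and 3578.8 in null replicates 1 to 3 and 11021.3, 7737.5 and 10455.9 in control replicates 1 to 3. All null mice lay below all control mice, and the log2 difference of -0.98 did not pass (limma adjusted p = 0.0723). The prostaglandin E receptor Ptger4 differed by 0.55 and the peptide Edn1, which mast cell proteases degrade, by 0.48, neither of which passed. For Ptger4 every null mouse lay above every control mouse, and for Edn1 the groups overlapped. Of the 11 genes of this list with a probe set, every null mouse lay above in 1 and below in 3. These shares were 13.1% and 10.8% over all probe sets tested, and 6.26% and 5.31% over all untested ones.

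**Figure D4:**
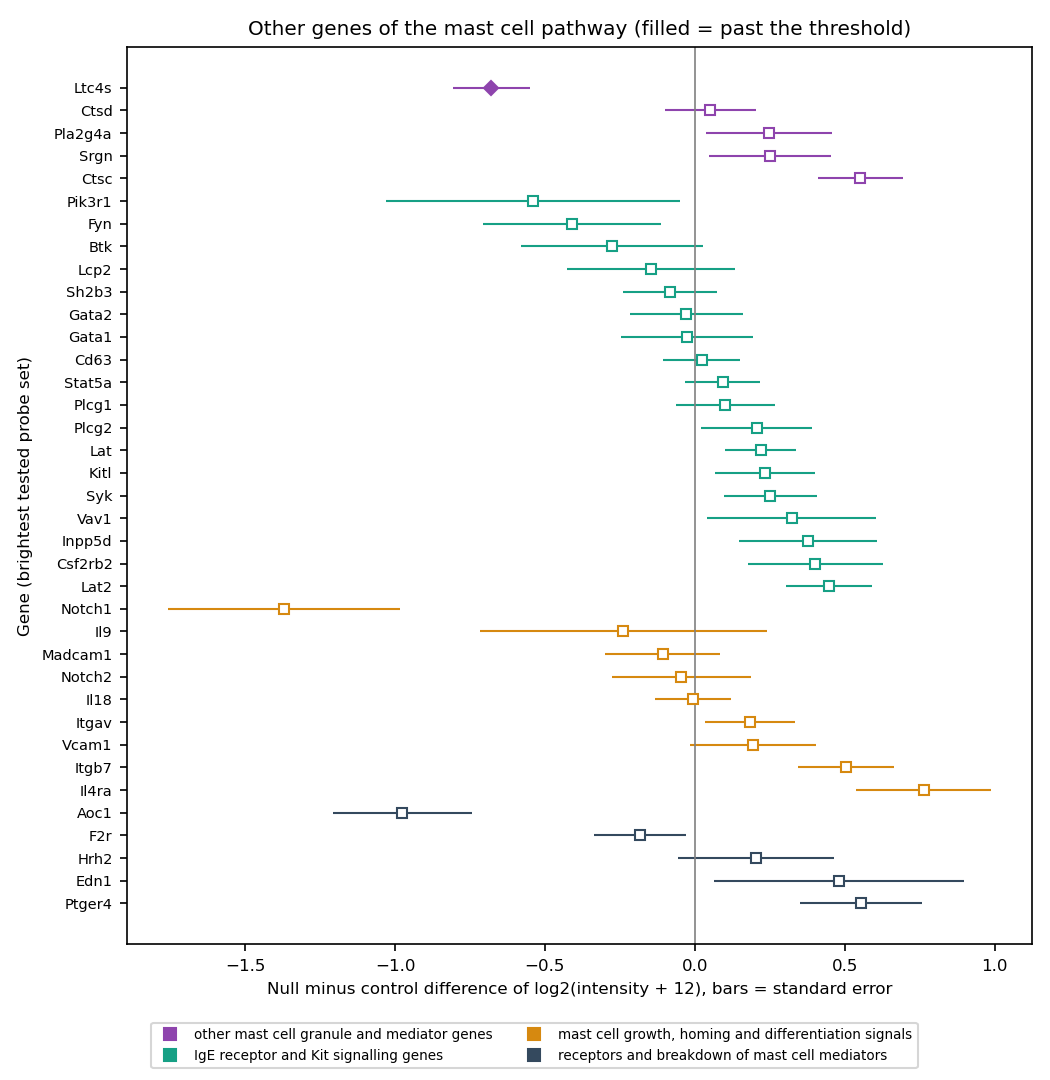
Null minus control difference on the log2(intensity + 12) scale for the 37 tested genes of the 4 mast cell pathway lists, 1 point per gene with its standard error as a bar, coloured by list and filled where it passed the test. Only Ltc4s, at -0.68, passed the test over all probe sets, and the median of the 37 was 0.10.

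Markers of other cells that could carry some of these genes were read in the same mice. The 6 eosinophil and basophil marker genes with a probe set were all too dim to be tested, and the groups overlapped in each. Their summed intensity was 173.6 to 187.9 in null mice and 205.4 to 229.6 in control mice. Every value in these sums was dim, so no difference between the groups is read from them. Of 4 neutrophil markers tested, 1 passed, lactoferrin (Ltf), which read 114.9, 154.9 and 183.5 in null replicates 1 to 3 and 22.5, 43.7 and 29.1 in control replicates 1 to 3 (limma adjusted p = 0.0368). Ltf was tested through its null values alone, and it was at least 1.32-fold higher in null mice. The Ltf call was lost with sex as a covariate, in males only and in 5 of the 6 fits that left out a mouse, all but that without control replicate 2, and under the stricter filter it was not tested. In 4 of the 11 neutrophil markers with a probe set (Ltf and the untested Mpo, S100a8 and S100a9) every null mouse lay above every control mouse, and in 0 every null mouse lay below. Over all probe sets tested, the shares were 13.1% above and 10.8% below. Over all untested probe sets they were 6.26% and 5.31%. The summed intensity of all 11 neutrophil markers was 1567.9 to 1928.4 in null mice and 1116.7 to 1776.1 in control mice, with Csf3r as its brightest gene. Cytotoxic lymphocyte markers, of which 2 of 10 could be tested and 0 passed, summed to 1100.4 to 1846.4 in null mice and 1072.0 to 1739.7 in control mice. In 2 of the 10, the untested Cd8a and Klrd1, every null mouse lay below every control mouse, and in 0 every null mouse lay above.

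Of 6 markers of smooth muscle tested beside Kit, 1 rose, the actin Actg2, at 7433.6, 6036.0 and 8582.6 in null replicates 1 to 3 and 3716.3, 2409.7 and 2587.2 in control replicates 1 to 3 (log2 difference 1.35, limma adjusted p = 0.0151). The name of this probe set marks a sequence family, and the call was lost without null replicate 1, without null replicate 3 and in males only. All 6 had differences above 0. In 4 of the 6 every null mouse lay above every control mouse, beside 13.1% over all probe sets tested, and in 2 the groups overlapped. Their sum was 15859 to 20303 in null mice and 8833 to 13272 in control mice. Actg2 was its brightest gene in null mice, at a mean of 7351 against 2904 in control mice. Of the 7 epithelial markers, all had differences below 0 and 0 passed. In 4 of the 7 every null mouse lay below every control mouse, beside 10.8% over all probe sets tested. Lactase (Lct) read 714.5, 4815.5 and 569.1 in null replicates 1 to 3 and 11317.3, 10927.9 and 10865.6 in control replicates 1 to 3. The female null mouse was the lowest null mouse on the probe sets of Mcpt1, Mcpt2, Cma2 and Cpa3 that passed. For Lct it was thus nearest to the controls. The part of such shifts in tissue make-up in the values of the mast cell genes was not tested.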

How the data were processed

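RNA of 6 mice was extracted with TRIzol, per the labels. The authors deposited linear intensities, 1 for each probe set; the software that the authors used, its background correction and its scaling are not given in the sources used here. Precision is limited by the 3 mice per group. The p-values weigh a difference against the spread between mice, which limma moderates over all probe sets tested. Of 12488 probe sets, 66 array controls were dropped, which left 12422. In the platform annotation 10833 of these carried a single gene symbol, 396 carried several and 1193 carried none, and genes were named from single symbols. RefSeq held 10817 of the 10833 and changed 0 symbols.

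Values were turned into log2(intensity + 12), 12 being the 10th percentile of positive values. Probe sets above 109.7, the 40th percentile, in at least 3 arrays were fitted with limma 3.58.1 in R 4.3.3 (eBayes with a variance trend, two-sided, Benjamini-Hochberg adjustment over 7601 probe sets, threshold 0.05). A further fit added sex, and another the interaction of genotype and sex. Replicate numbers follow the order of the samples and pair no mice. The functions were tested on simulated data. Lists took the brightest tested probe set of a gene. Promoters were aligned globally with Biopython 1.88.

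The members and lists were chosen with earlier results of these data known. Genes named were all members, every listed gene that passed or else up to 3 per list with the largest difference, the 5 nearest profiles, and Cftr; Mcpt8, Ctsg, Ctsc, Ms4a2, Fcer1g, Kitl, Gata2, Il9, the dim genes of the lists were picked out after their values were seen. Alternatives were quantile normalization, equal medians, pseudocounts of 3 and 48, males only, a model with sex, eBayes without trend, no filter, a stricter filter at the 60th percentile (288.7), each mouse left out and, added later, marked names left out.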

Additional observations from a re-analysis of the deposited data

Results flagged for a closer look

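A probe set outside the comparison of the 10 genes, because the platform annotation gives it both Cma2 and Mcpt9, carried a signal above that of the control mice. It read 1008.7, 534.4 and 1178.3 in null replicates 1 to 3 and 252.2, 278.0 and 233.8 in control replicates 1 to 3. The mean was 907.1 in null mice and 254.7 in control mice, 3.28-fold higher in null mice on the log2(intensity + 12) scale. Mcpt9 lies between Mcpt2 and Mcpt4 on chromosome 14 and had no probe set of its own, and the share of either gene in this signal was not tested.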

How the results depend on the processing

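Across 12 other settings for each of the 15 probe sets, 176 of 180 log2 differences stayed within 1 SD of the reported ones and 4 moved, all under another pseudocount: with 48 in place of 12, Cpa3 gave 1.99, the dimmer Mcpt1 probe set 4.05 and Fcer1a 0.78, and with 3 Fcer1a gave 2.42. Both Mcpt1 probe sets and Mcpt2 passed in all 15 other fits, Cma2 in 14 and Cpa3 in 12. Under the stricter filter Cpa3 was not tested. The genes were chosen on this contrast in these same mice, so these counts describe the processing and give no further support. Cpa3 and the dimmer Mcpt1 probe set passed the reported filter through their null values alone. Members higher in null mice numbered 2 with marked names left out and 3 to 5 with 1 mouse left out. Over all probe sets, 49 were higher and 92 lower with eBayes without trend, and 50 and 85 in males only. With 1 mouse left out, 17 to 68 were higher and 35 to 117 lower. Other pathway genes lower in null mice numbered 0 without trend, in males only, without the filter and with sex as a covariate, and 2 after quantile normalization (Aoc1 and Ltc4s). With 1 mouse left out, 0 to 1 were lower and 0 to 1 higher; Aoc1 was the lower and Ctsc the higher one, both without null replicate 2. For sex, 0 probe sets were called with a pseudocount of 48 or without trend, and 1 without the filter or after quantile normalization. The cause of these shifts was not tested. No paired analysis was possible because the labels state no replicate numbers, litters or batches. The sample titles are codes with no stated meaning; those of null replicate 3 and control replicate 1 share a stem, and whether this marks a litter or batch is not known. What dim probe sets hold below 109.7 was not measured.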
